A study of Homo sapiens with 6 samples.

Results

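The TNF ligand and receptor superfamilies were followed in T3M4, an established human pancreatic ductal adenocarcinoma cell line, by RNA sequencing of untreated cells. Members were the protein-coding rows of the deposited gene count table whose symbols start with TNFSF or TNFRSF and a digit, together with 15 relatives that carry other names, such as CD70, FAS, LTBR, NGFR and EDAR. This rule gave 48 genes of 58735 in the table, 19 ligands and 29 receptors, and used no measured value. The 6 libraries formed 2 groups of 3. The first is labelled MUC16 knockout (titles T3M4M16), and the second is labelled WT in its titles and MUC16 expressing in its genotype field. Neither group received a treatment. How the knockout was made, and whether it is 1 clone, is not given in the sources used here. MUC16 is a large membrane mucin of epithelial cells.

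Ligands of this superfamily are trimeric membrane proteins, many of which are also shed, and each binds a receptor with cysteine-rich repeats outside the cell. Receptors with a death domain can recruit the adaptors FADD and TRADD and start caspase-8 cleavage, whereas the others bind TRAF proteins and signal to NF-kB and stress kinases. Decoy receptors bind ligand without signalling death. In carcinoma cells the family is known for the apoptosis receptors of TRAIL and FAS ligand, for TNF signalling to NF-kB, and for costimulatory ligands that act on T and NK cells.

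Library totals ran from 19088927 to 28612621 counts. MUC16 itself (ENSG00000181143) was higher in the libraries labelled knockout, with 292, 504 and 323 counts against 98, 144 and 90 in the libraries labelled WT (log2 fold change 1.79 ± 0.17, SE, edgeR adjusted p = 4.79e-09), so its RNA went against the labels and every direction below belongs to the labels alone. The 7 epithelial markers checked were all expressed and all higher in the libraries labelled knockout, with summed levels of 5612 to 5880 CPM (counts scaled to a common library size of 1e+06) against 3588 to 3667 CPM in the libraries labelled WT. Of 10 leukocyte markers 3 were tested and 1, LYZ, was higher. Their summed level was 6.38 to 7.37 CPM in the libraries labelled knockout and 3.83 to 4.84 CPM in those labelled WT, CD3D and MS4A1 had 0 counts in all 6 libraries, and PTPRC had at most 8. Of 6 fibroblast markers 2 were tested and 1 was higher (42.4 to 46.6 CPM summed in libraries labelled knockout and 30.6 to 34.1 CPM in libraries labelled WT). Of 4 endothelial markers 3 were tested and 3 were higher (19.7 to 22.0 CPM summed in libraries labelled knockout and 13.4 to 16.6 CPM in libraries labelled WT). LYZ and the endothelial VWF passed the filter on low counts through the libraries labelled knockout, where they were higher. They were above its CPM cutoff in all 3 of those, but in 0 and 1 of the libraries labelled WT. The part of these marker differences in the results below was not tested. Nothing in the labels says that libraries of a group are separate cultures, so p-values measure the spread between these libraries, which may be technical. In bulk RNA, fewer cells with a transcript and less transcript per cell cannot be told apart.

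Of the 48 genes, 35 passed the filter on low counts and were tested, 13 ligands and 22 receptors. Between the libraries labelled knockout and those labelled WT, 18 were higher and 7 lower at an adjusted p under 0.05 (edgeR quasi-likelihood test, Benjamini-Hochberg over all genes tested). Called genes were thus 71.4% of those tested, where 52.6% of all 16655 genes and 58.4% of the protein-coding genes were called. By direction, 51.4% were higher against 26.7% of all genes and 28.7% of the protein-coding ones, and 7 of 35 were lower against 25.9% and 29.6%. The groups did not overlap for 26 of the 35 genes, against 59.0% of all genes. Changes of at least 2-fold were found in 9 genes, all higher, and in 0 lower, where 7.52% of all genes and 7.15% of the protein-coding ones were at least 2-fold higher, and 1.36% and 1.01% at least 2-fold lower. The median log2 fold change of the 35 genes was 0.49, against 0.00 over all genes tested. It was 0.26 over the 31 genes above the filter's CPM cutoff in all libraries of both groups, and leaving out a library lowered it to 0.26 (WT replicate 1 or knockout replicate 3) or 0.29 (WT replicate 3). The median also varied with level. At a mean under 1 CPM, 1 to 10 CPM and 10 CPM or more it was 0.22, 0.19 and -0.06 over all genes. For the 7, 11 and 17 members in those ranges it was 0.54, 0.82 and 0.19. At least 2-fold higher were 2, 3 and 4 of these members, against 474 of 2543, 586 of 4389 and 192 of 9723 of all genes. TNFRSF18 and TNFRSF19 were above the cutoff in all 3 libraries labelled knockout but in 0 and 1 of those labelled WT, so TNFRSF18 was tested only because it was higher in the libraries labelled knockout. TNFSF13B and TNFSF11 were above it in some libraries of each group.

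**Figure D1:**
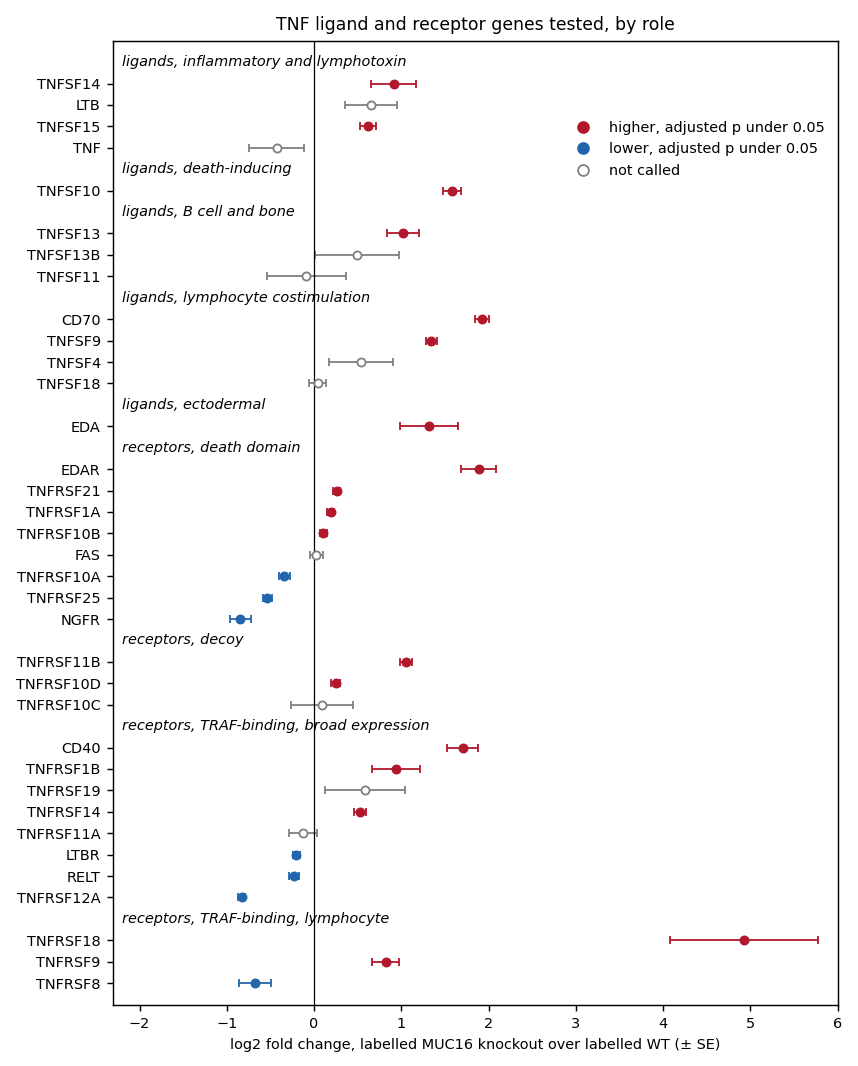
Log2 fold change of each of the 35 tested TNF family genes (x axis, libraries labelled MUC16 knockout over libraries labelled WT, bars are SE, 3 libraries in each group), arranged by role. All 7 called ligands lie to the right of 0, while called receptors lie on both sides, 11 to the right and 7 to the left. Of all genes tested, 26.7% were called higher and 25.9% lower.

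Of 13 ligands tested 7 were higher and 0 lower, and of 22 receptors 11 were higher and 7 lower; the difference between these shares was not tested. Summed over the 19 ligands, the level was 247.3, 248.4 and 249.8 CPM in the libraries labelled knockout and 101.1, 115.3 and 101.9 CPM in the libraries labelled WT. TNFSF9, CD70 and TNFSF10 together made 78.7% to 80.0% of that sum in the libraries labelled knockout and 58.9% to 67.9% in those labelled WT. The sum over the 29 receptors was 1464 ± 16.2 CPM in the libraries labelled knockout and 1527 ± 8.81 CPM in the libraries labelled WT (SD, n = 3 each). Its direction rested on TNFRSF12A: the other 28 receptors summed to 1278 ± 14.2 CPM in the libraries labelled knockout and 1198 ± 11.2 CPM in the libraries labelled WT.

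The costimulatory ligand CD70 (ENSG00000125726, GRCh38 chromosome 19, 6583183 to 6604103, minus strand), which activates CD27 on lymphocytes, had the largest fold change among the ligands. Its level was 57.4, 57.6 and 59.5 CPM in the libraries labelled knockout and 13.0, 17.3 and 15.9 CPM in the libraries labelled WT. The groups lay far apart, and the libraries labelled knockout were closely alike. CD70 was 3.78-fold higher (log2 fold change 1.92 ± 0.08, SE, adjusted p = 2.98e-15). Its receptor CD27 did not pass the filter, with 1, 8 and 8 counts in the libraries labelled knockout and 12, 6 and 2 in the libraries labelled WT. CD27 shares 37.0% of its exon bases with the opposite-strand CD27-AS1, so part of even this small count may belong there.

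TNFSF9 (ENSG00000125657, chromosome 19, 6530999 to 6535928, plus strand), the ligand of the T cell costimulator 4-1BB, had 93.6, 93.9 and 90.9 CPM in the libraries labelled knockout, against 35.0, 41.9 and 32.5 CPM in the libraries labelled WT. The lowest library labelled knockout was more than 2-fold above the highest labelled WT (1.34 ± 0.07, adjusted p = 8.83e-14). Per length it was the most abundant ligand in both groups, at 55.1 ± 0.984 FPKM (reads per kilobase of gene length, scaled by the authors) in libraries labelled knockout and 21.8 ± 2.91 FPKM in libraries labelled WT (SD, n = 3 each). The receptor TNFRSF9, 4-1BB itself, had 7.73, 7.08 and 5.50 CPM in the libraries labelled knockout and 3.60, 3.38 and 4.48 CPM in the libraries labelled WT. It was also higher without overlap (0.82 ± 0.16, adjusted p = 0.000109), at a per-length level of 1.06 ± 0.180 FPKM against 0.602 ± 0.0911 FPKM.

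The other costimulatory ligands were not called or not tested. TNFSF18, the ligand of GITR, had 18.6, 18.6 and 19.2 CPM in the libraries labelled knockout and 21.9, 15.2 and 17.7 CPM in the libraries labelled WT, and the libraries labelled knockout lay within the range of those labelled WT (0.04 ± 0.10, adjusted p = 0.76). TNFSF4, the OX40 ligand, stayed under 1 CPM in every library (0.54 ± 0.37, adjusted p = 0.236). TNFSF8 had 1 count in all, and CD40LG had 0, where 3 counts would be 0.0403 CPM pooled over the libraries labelled knockout and 0.0397 CPM over those labelled WT (a limit for counting error alone).

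TNFSF10, or TRAIL, a ligand that triggers apoptosis through its death receptors (ENSG00000121858, chromosome 3, 172505508 to 172523507, minus strand), had 46.8, 44.0 and 47.8 CPM in the libraries labelled knockout and 11.6, 19.1 and 15.7 CPM in the libraries labelled WT. The libraries labelled WT were uneven, with replicate 2 highest, and still lay well below. TNFSF10 was 2.99-fold higher (1.58 ± 0.11, adjusted p = 1.4e-11). FASLG, the ligand of FAS, had 2 counts in a single library labelled knockout and 0 in those labelled WT, so no difference was detectable at this depth.

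Among the inflammatory and lymphotoxin ligands, TNFSF15 (TL1A, which binds the death receptor TNFRSF25) had 17.8, 21.0 and 17.9 CPM in the libraries labelled knockout and 12.4, 12.0 and 12.5 CPM in the libraries labelled WT (0.62 ± 0.09, adjusted p = 3.58e-06). TNFSF14 (LIGHT, a ligand of HVEM and LTBR) had 1.89, 1.75 and 2.56 CPM in the libraries labelled knockout and 1.18, 1.23 and 0.896 CPM in the libraries labelled WT. Its groups did not overlap (0.91 ± 0.26, adjusted p = 0.00512), but the call was lost without knockout replicate 3 (adjusted p = 0.0566). TNF, the founding cytokine of the family, had 0.819, 1.13 and 0.888 CPM in the libraries labelled knockout and 0.835, 1.38 and 1.66 CPM in the libraries labelled WT, which overlap (-0.43 ± 0.32, adjusted p = 0.268). LTB, the membrane subunit of lymphotoxin, overlapped too, with 1.02, 1.63 and 1.64 CPM in the libraries labelled knockout and 1.06, 0.966 and 0.717 CPM in the libraries labelled WT. LTB was not called (0.65 ± 0.30, adjusted p = 0.0702) except without knockout replicate 1 (log2 fold change 0.82, adjusted p = 0.0351). LTA, the secreted lymphotoxin, had 5 counts in the libraries labelled knockout and 6 in those labelled WT.

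Of the ligands of B cell and bone biology, TNFSF13 (APRIL, a plasma cell survival factor) had 6.04, 5.72 and 5.70 CPM in the libraries labelled knockout and 2.50, 3.98 and 2.06 CPM in the libraries labelled WT. It was higher (1.01 ± 0.18, adjusted p = 6.1e-05), with WT replicate 2 nearest to the other group. The gene shares 55.5% of its exon bases with the read-through gene TNFSF12-TNFSF13 on the same strand, so its count is uncertain. TNFSF13B (BAFF; 0.49 ± 0.48, adjusted p = 0.411) and TNFSF11 (RANKL, the osteoclast factor; -0.09 ± 0.45, adjusted p = 0.883) were under 1.1 CPM in every library and not called. TNFSF12 (TWEAK) had 2, 4 and 0 counts in the libraries labelled knockout and 0 in those labelled WT, and 29.4% of its exon bases are shared with the same read-through gene, which is listed at 0.

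The ectodermal ligand EDA, which with EDAR patterns hair, teeth and glands, had 1.28, 1.59 and 1.30 CPM in the libraries labelled knockout and 0.417, 0.557 and 0.717 CPM in the libraries labelled WT (1.31 ± 0.33, adjusted p = 0.00197). Its death domain receptor EDAR had 5.07, 5.29 and 5.02 CPM in the libraries labelled knockout, against 1.75, 1.41 and 0.941 CPM in the libraries labelled WT, a 3.70-fold difference (1.89 ± 0.20, adjusted p = 3.06e-08). Both members of the pair were therefore higher without overlap, at low levels. The adaptor of this receptor, EDARADD, was not called (log2 fold change -0.20), and the second receptor EDA2R had 4 counts in the libraries labelled knockout and 1 in those labelled WT (ratio 4.06, 95% exact binomial interval 0.401 to 199.7).

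**Figure D2:**
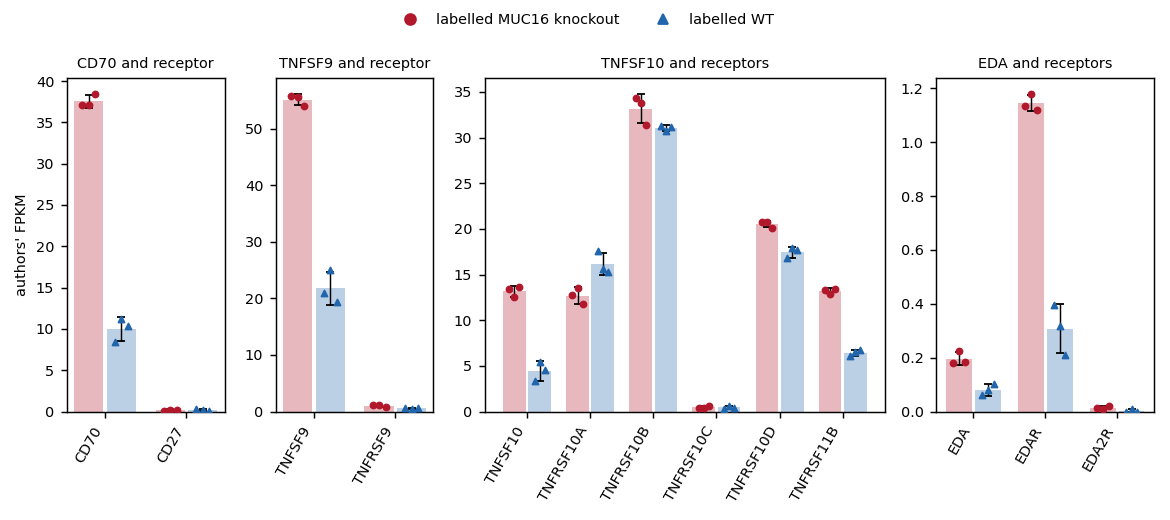
Level per length (y axis, the authors' FPKM) of 4 ligands and of the receptors each binds; bars are means, error bars SD and points the 3 libraries of each group, with each panel on its own scale. The ligands CD70, TNFSF9, TNFSF10 and EDA are higher in every library labelled knockout, whereas of the receptors of TNFSF10 only TNFRSF11B differs by about as much as 2-fold.

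Promoter windows of RefSeq (GRCh38.p14, 250 bases before to 50 after a start) were matched by symbol for 30 of the 48 genes, in 41 windows. CD70, CD40, EDA, EDAR, NGFR and TNFRSF12A are among the 18 without an entry. Both strands were searched for the kappaB consensus (the site of NF-kB dimers), TGANTCA (an AP-1 site), a paired GAAA motif (GAAA, any 2 bases, GAAA, the core of interferon-responsive elements) and ACGTG (the core of a hypoxia-responsive element). The windows below are in lower case, 5′ to 3′ along the gene, with matches in capitals. They were chosen after values and matches were seen, as examples of windows that hold a match: 4 of genes that were higher (TNFSF9 with its receptor, TNFSF10 and TNFSF14) and 1 of a gene that was lower (TNFRSF25). Other called genes, such as TNFRSF1A, have a window with no match.
TNFSF9 promoter, chr19:6530776-6531075, plus strand: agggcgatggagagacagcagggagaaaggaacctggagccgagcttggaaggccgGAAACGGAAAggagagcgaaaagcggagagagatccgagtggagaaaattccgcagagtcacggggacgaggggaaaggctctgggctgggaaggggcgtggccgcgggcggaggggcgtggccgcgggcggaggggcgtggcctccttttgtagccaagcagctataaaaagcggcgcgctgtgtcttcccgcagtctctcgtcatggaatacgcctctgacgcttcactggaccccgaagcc
TNFRSF9 promoter, chr1:7940790-7941089, minus strand: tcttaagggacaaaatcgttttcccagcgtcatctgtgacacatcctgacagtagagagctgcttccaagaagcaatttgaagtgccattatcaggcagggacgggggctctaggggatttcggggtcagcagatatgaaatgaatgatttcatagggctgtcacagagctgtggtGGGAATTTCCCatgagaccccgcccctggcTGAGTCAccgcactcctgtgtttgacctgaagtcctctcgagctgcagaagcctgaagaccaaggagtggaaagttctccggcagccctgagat
TNFSF10 promoter, chr3:172523381-172523680, minus strand: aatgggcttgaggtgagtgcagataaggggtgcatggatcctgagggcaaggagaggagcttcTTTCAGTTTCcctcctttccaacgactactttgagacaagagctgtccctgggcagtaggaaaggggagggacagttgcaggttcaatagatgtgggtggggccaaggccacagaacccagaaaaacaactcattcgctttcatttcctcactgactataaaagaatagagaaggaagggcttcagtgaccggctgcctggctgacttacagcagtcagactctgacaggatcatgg
TNFSF14 promoter, chr19:6670109-6670408, minus strand: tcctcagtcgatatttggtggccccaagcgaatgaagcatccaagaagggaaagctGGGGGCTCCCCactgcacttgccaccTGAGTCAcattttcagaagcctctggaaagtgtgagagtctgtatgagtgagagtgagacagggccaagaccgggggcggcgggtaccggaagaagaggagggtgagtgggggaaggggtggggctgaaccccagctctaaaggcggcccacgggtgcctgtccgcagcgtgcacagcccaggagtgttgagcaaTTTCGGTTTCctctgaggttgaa
TNFRSF25 promoter, chr1:6466124-6466423, minus strand: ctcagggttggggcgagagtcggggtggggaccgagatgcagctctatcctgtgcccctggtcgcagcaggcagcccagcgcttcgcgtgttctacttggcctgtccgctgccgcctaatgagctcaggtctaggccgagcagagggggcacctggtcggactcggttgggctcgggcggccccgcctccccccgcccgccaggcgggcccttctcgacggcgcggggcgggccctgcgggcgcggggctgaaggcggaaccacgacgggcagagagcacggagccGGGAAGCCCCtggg

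Counting from 0 at the start, the capitals of TNFSF9 begin at -194 and those of TNFSF10 at -187, both the paired GAAA motif, the second on the opposite strand. In TNFRSF9 they mark overlapping kappaB matches at -74 and -73 and TGANTCA at -44. In TNFSF14 they mark kappaB matches at -194 and -193, TGANTCA at -168 and the paired GAAA motif at 27, so this window alone among those printed holds 3 kinds of match. In TNFRSF25 they mark a kappaB match at 36. The paired GAAA motif was found in 8 of the 41 windows (19.5%, 6 genes) and in 3.57% of 35114 windows of all genes. The kappaB consensus was in 12 windows (29.3%, 10 genes) against 11.3% of all, TGANTCA in 9 (22.0%, 7 genes) against 7.71%, and ACGTG in 6 (14.6%, 5 genes) against 21.4%. A match is a string of letters, not a shown binding site. The matches were not confined to genes that rose: FAS, TNFSF11 and LTB, which were not called, and TNFRSF25 and TNFRSF8, which fell, hold matches too.

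The death domain receptors were called in both directions, 4 higher and 3 lower of 8. All genes tested also went both ways, 26.7% higher and 25.9% lower, and the difference from these shares was not tested. TNFRSF10B, 1 of the 4 higher, had a small difference (log2 fold change 0.11) and lost its call in 10 of 17 alternatives. TNFRSF1A, the main TNF receptor of epithelial cells, had 259.7, 258 and 259.8 CPM in the libraries labelled knockout and 223, 227 and 231 CPM in the libraries labelled WT, a small and separate rise (0.19 ± 0.04, adjusted p = 0.000261). TNFRSF21 (death receptor 6) had 297, 286 and 292 CPM in the libraries labelled knockout and 242, 246 and 243 CPM in those labelled WT (0.26 ± 0.04, adjusted p = 5.65e-06). FAS showed no call, with 22.7, 23.0 and 20.8 CPM in the libraries labelled knockout and 21.9, 22.3 and 21.2 CPM in those labelled WT (0.02 ± 0.07, adjusted p = 0.825), and 8.93% of its exon bases are shared with the opposite-strand ACTA2. TNFRSF25, the receptor of TNFSF15, fell while its ligand rose, with 34.3, 36.2 and 34.6 CPM in the libraries labelled knockout against 50.4, 50.7 and 51.2 CPM in the libraries labelled WT (-0.53 ± 0.06, adjusted p = 3.83e-08). TNFRSF25 shares 8.94% of its exon bases with ESPN on the other strand and 2.43% with PLEKHG5 on its own. NGFR, the low-affinity neurotrophin receptor, had 7.01, 6.73 and 6.01 CPM in the libraries labelled knockout and 10.1, 12.4 and 12.9 CPM in the libraries labelled WT, a fall about as large as that of TNFRSF12A below (-0.85 ± 0.12, adjusted p = 1.94e-06).

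The receptors of TRAIL moved by less than TRAIL itself and not together. TNFRSF10A (death receptor 4) fell, with 38.0, 40.6 and 35.1 CPM in the libraries labelled knockout and 51.9, 46.4 and 45.4 CPM in the libraries labelled WT (-0.34 ± 0.07, adjusted p = 0.000152). TNFRSF10B (death receptor 5) had 179, 177 and 164 CPM in the libraries labelled knockout and 161, 159 and 162 CPM in the libraries labelled WT. Its small difference (0.11 ± 0.04, adjusted p = 0.0439) lost its call in 10 of 17 alternatives, among them DESeq2 (adjusted p = 0.0639) and leaving out any library except knockout replicate 3 (adjusted p 0.0641 to 0.194). The decoy TNFRSF10D, which lacks a full death domain, rose with 74.0, 74.4 and 72.0 CPM in the libraries labelled knockout and 59.4, 63.5 and 63.0 CPM in the libraries labelled WT (0.25 ± 0.05, adjusted p = 0.000225). The membrane-anchored decoy TNFRSF10C had 14, 19 and 35 counts in the libraries labelled knockout and 16, 31 and 17 in those labelled WT, and was not called (0.09 ± 0.35, adjusted p = 0.85); 39.3% of its exon bases are shared with other genes. TNFRSF11B (osteoprotegerin), a secreted decoy for TRAIL and RANKL, had 38.1, 37.0 and 38.4 CPM in the libraries labelled knockout and 17.3, 18.4 and 19.2 CPM in the libraries labelled WT, 2.07-fold higher (1.05 ± 0.07, adjusted p = 1.18e-11). The 4 TNFRSF10 genes are similar copies side by side on chromosome 8, where reads can be shared, and TNFRSF10A overlaps 2 opposite-strand RNAs over 7.59% and 9.01% of its exon bases.

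The decoy receptor TNFRSF6B is listed at 0 in all 6 libraries, but all of its exon bases (100%) lie within the read-through gene RTEL1-TNFRSF6B, which took 1243 counts. A 0 for TNFRSF6B, which soaks up FAS ligand, LIGHT and TL1A, is therefore no measure of its transcript.

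TNFRSF12A (Fn14, the TWEAK receptor, ENSG00000006327, chromosome 16, 3018445 to 3022383) was the most abundant member per length in both groups, at 99.4 ± 4.85 FPKM in the libraries labelled knockout and 178 ± 1.96 FPKM in the libraries labelled WT (SD, n = 3 each). In CPM it was 194, 177 and 187 in the libraries labelled knockout and 332, 326 and 330.1 in the libraries labelled WT. The groups lay well apart, and the gene fell to 56.3% of its level in the libraries labelled WT (-0.83 ± 0.04, adjusted p = 1.3e-13). By the mean FPKM over all 6 libraries TNFRSF21, TNFRSF1A, TNFSF9, LTBR and TNFRSF10B came next. Within groups the order differed, since CD70 lay above LTBR in the libraries labelled knockout, and TNFSF9 lay below LTBR and TNFRSF10B in the libraries labelled WT. LTBR (34.0 ± 0.260 FPKM) and TNFRSF10B (33.2 ± 1.56 FPKM) did not differ beyond their spread in the libraries labelled knockout but did in the libraries labelled WT (39.5 ± 0.284 and 31.0 ± 0.308 FPKM).

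**Figure D3:**
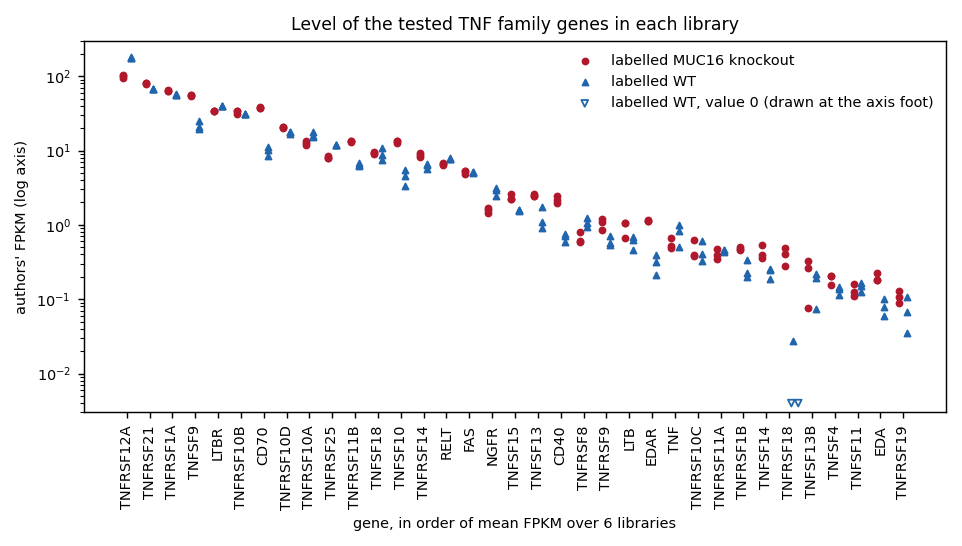
The authors' FPKM (y axis, log scale) of the 35 tested genes in each of the 6 libraries, ordered by mean FPKM. TNFRSF12A is highest in every library of both groups, TNFRSF18 is at 0 in 2 libraries labelled WT, and CD70, TNFSF10, CD40 and EDAR show a gap between the groups.

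The broadly expressed receptors that bind TRAF proteins, TNFRSF12A included, went both ways, with 3 higher and 3 lower of 8 tested. Of all genes tested, 26.7% were higher and 25.9% lower. CD40, which antigen-presenting cells and some carcinomas use to answer T cell help, had 5.48, 4.98 and 6.32 CPM in the libraries labelled knockout against 1.48, 1.90 and 1.79 CPM in the libraries labelled WT, 3.25-fold higher (1.70 ± 0.18, adjusted p = 2.7e-08). TNFRSF14 (HVEM, which binds LIGHT and the inhibitory BTLA) had 51.0, 59.3 and 55.1 CPM in the libraries labelled knockout and 34.7, 41.1 and 39.5 CPM in the libraries labelled WT (0.52 ± 0.07, adjusted p = 6.75e-07). It shares 13.4% of its exon bases with the opposite-strand TNFRSF14-AS1, whose log2 fold change was 1.95, and these reads cannot be told apart without strand. TNFRSF1B, the second TNF receptor, was rare, with 1.89, 1.75 and 1.81 CPM in the libraries labelled knockout and 0.759, 0.855 and 1.25 CPM in the libraries labelled WT, and higher (0.94 ± 0.28, adjusted p = 0.0063).

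LTBR, the lymphotoxin receptor that drives non-canonical NF-kB, had 216, 217 and 214 CPM in the libraries labelled knockout and 246, 251 and 249 CPM in the libraries labelled WT. The fall was small but without overlap (-0.20 ± 0.04, adjusted p = 0.000116), and was not called with cyclic loess scaling (-0.09, adjusted p = 0.0513). LTBR shares 6.72% of its exon bases with SCNN1A on the other strand, which had 23846 counts in all and rose (0.90). RELT, a receptor of hematopoietic and other tissues, fell as slightly, with 42.3, 43.1 and 41.3 CPM in the libraries labelled knockout and 50.4, 49.3 and 48.5 CPM in the libraries labelled WT (-0.23 ± 0.06, adjusted p = 0.0014). TNFRSF11A (RANK; -0.12 ± 0.16, adjusted p = 0.547) and TNFRSF19 (TROY; 0.58 ± 0.45, adjusted p = 0.294) were not called.

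Receptors of lymphocytes were rare. TNFRSF18 (GITR) had 11, 10 and 20 counts in the libraries labelled knockout and 1, 0 and 0 in the libraries labelled WT, a ratio of 41.6 with a wide counting interval (95%, exact binomial, 7.06 to 1682). Its fitted log2 fold change (4.92 ± 0.85, adjusted p = 3.24e-05) depends on the prior count. The gene stood at 0.393 ± 0.107 FPKM in the libraries labelled knockout, and its ligand TNFSF18 at 9.24 ± 0.181 FPKM. TNFRSF8 (CD30) fell, with 2.25, 3.07 and 2.22 CPM in the libraries labelled knockout and 3.49, 3.94 and 4.71 CPM in the libraries labelled WT (-0.68 ± 0.19, adjusted p = 0.00398). TNFRSF13C (the BAFF receptor) had 15 counts in the libraries labelled knockout and 14 in the libraries labelled WT, and TNFRSF4 (OX40) and TNFRSF17 (BCMA) had 1 count each. TNFRSF13B (TACI) had 0.

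Position was not part of the rule. TNFSF9, CD70 and TNFSF14 lie next to each other on chromosome 19, with no other tested gene between them, and all 3 rose. Toward SLC25A23, a mitochondrial carrier, this extends to a run of 8 consecutive tested genes, from 6436079 to 6670588 on GRCh38, each called higher (log2 fold changes 0.74 to 1.92). The 5 of these outside the family are SLC25A23 (0.88), the polarity gene CRB3 (0.74), DENND1C (0.95), the antisense RNA AC010503.4 (1.35) and TUBB4A (1.71). The span of CRB3 overlaps SLC25A23 and DENND1C at its ends, and AC010503.4 lies within DENND1C on the opposite strand. Libraries were unstranded, so these overlapping genes may not be separate observations. TUBB4A was rare, at a mean of 0.942 CPM in the libraries labelled knockout and 0.271 CPM in the libraries labelled WT. C3, the next tested gene beyond TNFSF14, was not called (-0.02), and KHSRP on the other side fell (-0.40). Over all 17 non-members tested within 200000 bases of the cluster, 9 were higher and 5 lower, with a median of 0.13. Chromosome 19 as a whole had a median of 0.08 over 1122 genes tested. This neighbourhood was singled out after its values were seen. In the other clusters the members did not rise together. The TNFRSF10 genes held both directions, and TNFRSF1A rose while the nearby LTBR fell. TNF and LTB were not called, nor were TNFSF18 (0.04) and TNFSF4 (0.54) in their cluster.

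**Figure D4:**
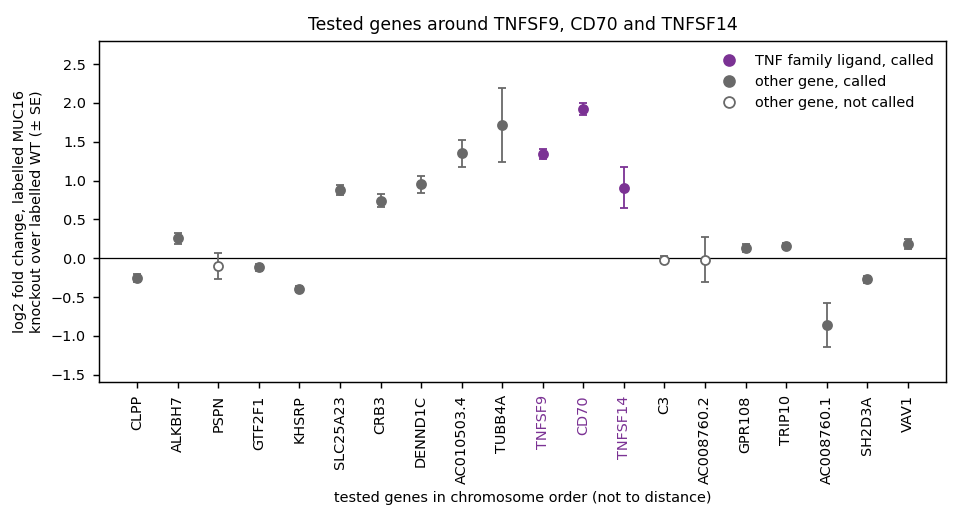
Log2 fold change (y axis, libraries labelled MUC16 knockout over libraries labelled WT, bars are SE) of the 20 tested genes within 200000 bases of the TNFSF9-CD70-TNFSF14 cluster, in chromosome order. The 3 ligands and the 5 genes before them, from SLC25A23 to TUBB4A, all lie above 0.7, and C3 after them lies at -0.02.

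Signalling genes below the receptors were read from 7 lists. Of 15 TRAF and death domain adaptors 1 was higher and 3 lower (median log2 fold change -0.03). TRADD, the adaptor of TNFRSF1A and TNFRSF25, rose to 39.6 ± 1.26 CPM in the libraries labelled knockout, against 23.8 ± 1.73 CPM in the libraries labelled WT (SD, n = 3 each, log2 fold change 0.73), and TRAF3IP2 (-0.35), TRAIP (-0.30) and TRAF2 (-0.30) fell. FADD (-0.01) and RIPK1 (-0.03) were not called. Without knockout replicate 2 the called adaptors numbered 7 in place of 4. Of 17 tested caspases, inhibitors and related death genes 6 were higher and 3 lower (median 0.10). The inhibitor of apoptosis BIRC3 (1.04) had 175.5 ± 6.41 CPM in the libraries labelled knockout and 85.3 ± 4.82 CPM in the libraries labelled WT, and the initiator caspases CASP10 (0.91) and CASP9 (0.66) also rose. The necroptosis effector MLKL fell (-0.91), CASP8 was not called (0.10), and its inhibitor CFLAR rose (0.27).

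Of 20 TAK1, IKK and ubiquitin regulators 3 were higher and 8 lower (median -0.09). OTULIN (-0.42) and CYLD (0.31), both deubiquitinases that limit NF-kB, went opposite ways, and CHUK (IKK-alpha, -0.38) and MAP3K1 (-0.33) fell. All 10 NF-kB subunits and inhibitors were called, 6 higher and 4 lower (median 0.18), but 8 to 10 without each library in turn. BCL3 (0.58) and RELB (0.50) rose, while NFKBIZ (-0.94) and REL (-0.38) fell. Of 17 TNF-inducible genes 7 were higher and 6 lower (median 0.02). IL6 (1.59), at 3.56 ± 0.407 CPM in the libraries labelled knockout and 1.17 ± 0.279 CPM in the libraries labelled WT, and TNFAIP2 (0.82) rose, and the neutrophil chemokines CXCL8 (-0.98) and CXCL2 (-0.90) fell.

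Of 11 genes for cutting ligands and receptors off the membrane or processing them 7 were higher and 2 lower (median 0.27). RHBDF2, which brings the TNF-cleaving protease ADAM17 to the surface, rose (0.78), as did RHBDF1 (0.43), ADAM17 itself (0.32) and its inhibitor TIMP3 (0.67). Of 9 tested partners and ligands of NGFR 5 were higher and 2 lower (median 0.28). The neurotrophin BDNF fell (-0.54), at 13.4 ± 0.504 CPM in the libraries labelled knockout and 19.5 ± 1.89 CPM in the libraries labelled WT (SD, n = 3 each), whereas LINGO1 (1.71 ± 0.54, SE) and MAGED1 (0.37) rose. LINGO1 was rare, at 0.631 ± 0.120 CPM in the libraries labelled knockout and 0.194 ± 0.160 CPM in the libraries labelled WT (SD). Against 52.6% called among all genes, these 7 lists had between 26.7% and 100% of their tested genes called. The caspase list (52.9%) and the TAK1, IKK and ubiquitin list (55.0%) lay near the share of all genes. By direction, 26.7% of all genes were higher and 25.9% lower.

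An adjusted p under 0.05 was given to 24 of the 35 genes in the authors' deposited table, and each was also called here with the same sign. TNFRSF10B was called here and not there.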

How the data were processed

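Per the labels' protocols, RNA was column-purified and libraries came from an unstranded NEBNext Ultra kit. The tools listed in the submitters' processing notes are fastp, HISAT2, STAR and DESeq, with builds GRCh38 and hg38; the sources used here give neither roles nor versions, nor the counter. The count table the authors deposited holds raw counts per gene. Their second table, per the file headers, holds the same counts, a normalised signal (the deposited counts divided by 1 factor per library), FPKM (that signal the authors divided by gene length and 1 constant), the authors' log2 fold changes and the authors' p-values. FPKM was used for levels between genes, counts for tests.

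The test was edgeR 4.0.16 in R 4.3.3 (glmQLFTest, two-sided, TMM, group as the only term, filterByExpr with minimum count 10, which left 16655 genes; threshold 0.05 after Benjamini-Hochberg adjustment). CPM are TMM-scaled. SE follow from the F statistic. The step was checked on simulated data. Libraries of a group differed beyond sampling noise (chi-square per degree of freedom 2.41 to 6.21). Alternatives used DESeq2 1.42.0 and limma 3.58.1. Overlaps come from GENCODE 29, and promoters from RefSeq GRCh38.p14.

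The members and lists were chosen with earlier results of these data known. Values in every library are given for members past the threshold and the 6 highest in FPKM, and of each list up to 4 genes with the largest changes past the threshold. Other list members, FAS, TNF and the chromosome 19 neighbours were named after their values were seen. 1 gene that this rule would name is not reported here.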

Additional observations from a re-analysis of the deposited data

How the results depend on the processing

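Of the 35 TNF family genes tested, 31 kept their side of the threshold in every one of the 17 alternatives that could give them a value. All 25 called genes kept their sign in those alternatives. FAS, TNFSF18, TNFRSF10C and TNFSF11, which were not called, changed sign in 1 to 3 of them, which leaves 27 that kept both. TNFRSF10B, LTBR, TNFSF14 and LTB, given above, did not keep their side. The family count was 21 with a stricter filter (50 counts in 3 libraries), which left 24 members to test, and 24 or 25 otherwise, without each library in turn too (17 or 18 higher, 7 lower). It fell to 6 lower with cyclic loess. The median log2 fold change, 0.49, was 0.31 with cyclic loess, 0.33 with limma-trend and TMM (an alternative chosen after seeing the data) and 0.24 with the stricter filter, whose own construction tests fewer genes; for the first pair the cause was not tested. Without each library it ran from 0.26 to 0.47. Called TRAF and death domain adaptors, 4, ran from 3 to 7 without each library, and called genes of the caspase list, 9, from 7 to 9. No scaling moved the median of all genes by more than 0.06. The replicate numbers are shared by the groups, but same-numbered libraries did not deviate together (correlations 0.0116, 0.0205 and -0.0240), and knockout replicate 3 correlated best with another number. With the replicate block 24 members were called (17 higher, 7 lower) and 8442 of all genes, against 8759 without it. The 13 untested members were under the filter and not in the main fit. Those with any count entered only the alternative without a filter, and its values for them are not given.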

Other observations

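Non-coding neighbours that carry family names were outside the rule and were tested. TNFRSF14-AS1, antisense to HVEM, had 58, 77 and 90 counts in the libraries labelled knockout and 15, 33 and 11 in the libraries labelled WT (log2 fold change 1.95, edgeR adjusted p = 3.27e-06). CD27-AS1 had 61, 91 and 107 counts in the libraries labelled knockout and 68, 55 and 57 in the libraries labelled WT (0.53, adjusted p = 0.0179). TNFRSF10A-AS1 had 50, 72 and 69 counts in the libraries labelled knockout and 112, 80 and 82 in the libraries labelled WT (-0.50, adjusted p = 0.0274), the same direction as TNFRSF10A. TNFRSF10A-AS1 and TNFRSF10A share 224 exon bases in unstranded libraries, so they may not be separate observations. AC100861.1, the other opposite-strand RNA over TNFRSF10A, was higher (0.42, edgeR adjusted p = 0.0127). The read-through gene RTEL1-TNFRSF6B, which holds all exon bases of the decoy receptor TNFRSF6B, had 6.47 ± 0.897 CPM in the libraries labelled knockout and 9.97 ± 0.383 CPM in the libraries labelled WT (SD, n = 3 each, -0.62, adjusted p = 0.000113).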
